A study of Drosophila melanogaster with 12 samples.

Results

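The heat shock genes described here are the 6 of 10 listed genes that had a probe set of their own: Hsp26, Hsp27, l(2)efl, Hsp68, DnaJ-1 and Hsc70-4. A probe set was taken where the platform annotation paired it with a single gene symbol and that symbol was on the list. This gave 6 probe sets, 1 per gene, of 12443 with a single symbol for 10844 genes in the whole series. Hsp22 was represented only by 3 probe sets that it shares with its neighbour CG4456. Hsp83 was reached through a probe set identifier that RefSeq lists among its synonyms. Hsp23 and Hsp67Bc were not analysed here. The data are 12 Affymetrix arrays of RNA from whole adult Drosophila melanogaster, 1 array for each hour from 1 to 12 after a change of diet. All flies had lived on standard diet without yeast from early in the third larval instar until 4 days after emergence, and were then returned to standard diet with yeast (treatment Y). The labels name no strain, sex or number of flies per array, and the arrays of flies left without yeast were not analysed here.

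Heat shock proteins are chaperones that bind unfolded proteins and keep them from aggregating. In Drosophila the Hsp70 genes and Hsp68 are strongly induced by heat and other stress through the heat shock factor Hsf, while the cognate Hsc70-4 is made all the time. DnaJ-1 is a J-domain protein that loads clients onto Hsp70 and stimulates its ATP hydrolysis, and Hsp83 is the Hsp90 of the fly. The small heat shock proteins Hsp22, Hsp23, Hsp26, Hsp27, Hsp67Bc and l(2)efl share the alpha-crystallin domain and hold clients without using ATP. Several of them are also made without stress, in ovary, muscle and ageing tissue. In RefSeq's gene order Hsp67Bc, CG4456, Hsp22, CG4461, Hsp26, Hsp67Ba, Hsp23 and Hsp27 stand next to each other in the small hsp locus 67B, with 1 antisense RNA gene among them.

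Values are the authors' normalized intensities on a linear scale. For the fits, intensities under 57.2, the 20th percentile of the table, were set to that floor and log2 was taken. Array medians lay between 113.7 and 120.3. On 5 arrays the accessory gland gene Acp95EF read over 3 times its lowest value, and these are called arrays with male transcripts. Of 10 accessory gland probe sets 8, that of Acp95EF among them, and of 8 testis probe sets 7, were higher on each of the 5 arrays of hours 2, 3, 5, 9 and 10 than on any of the other 7, and no marker of either list was at 0. The summed accessory gland signal was 819 to 1299 on the 5 arrays and 345 to 413 on the others. No hour was repeated, so p-values measure only the spread of these arrays around the fitted line, curve or window means over hours. That spread may be technical, and hour cannot be told apart from time of day, handling order or array processing.

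Over the 12 hours Hsp26 and Hsp27 rose and l(2)efl fell, and the other 3 genes did not pass the test of a trend over all 12 arrays. The small heat shock gene Hsp26 read 189, 231, 257, 189, 217, 218, 269.5, 182, 237, 305, 311 and 402 from hour 1 to hour 12. Its 3 highest values are the last 3 hours, and its lowest is hour 8. The fitted log2 change from hour 1 to hour 12 was 0.72 ± 0.21 (SE, n = 12 arrays), a 1.65-fold rise on the floored log2 scale (limma adjusted p = 0.0355). Hsp27, which lies in the same locus, read 172, 173, 186, 171, 174, 191, 198, 171, 196, 199.7, 213 and 229.5. It too had its 3 highest values in hours 10 to 12 and its lowest at hour 8. Its fitted change was 0.35 ± 0.08 (limma adjusted p = 0.0156), a 1.27-fold rise. Both genes thus shared their lowest hour and their 3 highest hours.

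The third small heat shock gene went the other way. The fly relative of alpha-B-crystallin, l(2)efl, read 653, 749, 816, 643, 783, 658, 532, 626, 533, 534, 437 and 414. Each value of hours 1 to 6 was above each value of hours 7 to 12, and the 2 lowest were the last 2 hours. The fitted log2 change was -0.81 ± 0.14 (limma adjusted p = 0.00266), so that the level at hour 12 was fitted at 0.57 of that at hour 1. In RNA of whole flies, fewer cells of a type and less RNA per cell cannot be told apart. Markers of other tissues moved over the same hours. The summed signal of 7 ovary and yolk probe sets was 2953 at hour 1 and 17495 at hour 12. In the same hours that of 4 muscle probe sets was 7757 and 5787, and that of 2 nerve probe sets 624 and 315. That of 2 eye probe sets was 5178 and 2717, and that of 3 fat body probe sets 1619 and 3256. Among the muscle probe sets Mlc2 read 5189 and 3792, and Act88F 875 and 391. The probe sets of up read 1287 and 1178, and 406 and 426. Act88F was that high at hour 1 alone, and lay between 252 and 585 in hours 2 to 12. In the fat body list Lsp2 read 225 and 226 at hours 1 and 12. Within the ovary and yolk list the yolk protein genes Yp1, Yp2 and Yp3 read 632, 428 and 859.6 at hour 1. At hour 12 they read 5204, 4479 and 5854. The vitelline membrane genes Vm26Aa and Vm34Ca read 318 and 408.5 at hour 1 and 902 and 736 at hour 12. In hours 2 to 11 Vm26Aa lay between 313 and 658 and Vm34Ca between 365 and 563, so hour 12 stood above all earlier hours. The chorion genes Cp36 and Cp38 read 250.0 and 55.9 at hour 1 and 249.8 and 69.5 at hour 12. None of these markers was at 0, and their part in the trends of the small heat shock genes was not tested. The log2 excess of the 3' over the 5' actin control also moved, from 1.13 in hour 1 to 0.69 in hour 12. With it as covariate Hsp26 did not pass at 1.11 ± 0.34 (limma adjusted p = 0.133) nor Hsp27 at 0.49 ± 0.14 (0.11), changes larger than without it and with larger SEs, and l(2)efl did at -1.07 ± 0.24 (0.0367).

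Trends past an adjusted p of 0.05 were found for 13.4% of all 11586 probe sets tested, with 8.44% higher and 4.97% lower in later hours. Of the 6 heat shock genes 2 were higher and 1 lower, and all 6 passed the filter on low values, Hsp68 with 8 arrays above the floor and the others with 12. The median fitted change of the 6 was -0.02, against 0.01 over all probe sets. The call of l(2)efl was kept when any single hour was left out. The call of Hsp26 was lost without hour 12 (change 0.51, limma adjusted p = 0.184), and without hour 1 (0.0925), 4 (0.0597), 5 (0.0521), 10 (0.051) or 11 (0.0921). Hsp27 lost its call without hour 11 (limma adjusted p = 0.051) or hour 12 (0.0838). Without the 5 arrays that held male transcripts the changes were 1.01 for Hsp26 (limma adjusted p = 0.0361), 0.40 for Hsp27 (0.0662) and -0.70 for l(2)efl (0.0261), and Hsp68 then passed with -0.41 (0.0491). Under that setting 3 genes again passed, with Hsp68 in place of Hsp27. The arrays left out include hour 10, where Hsp68 had its highest value of 95.3.

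**Figure D1:**
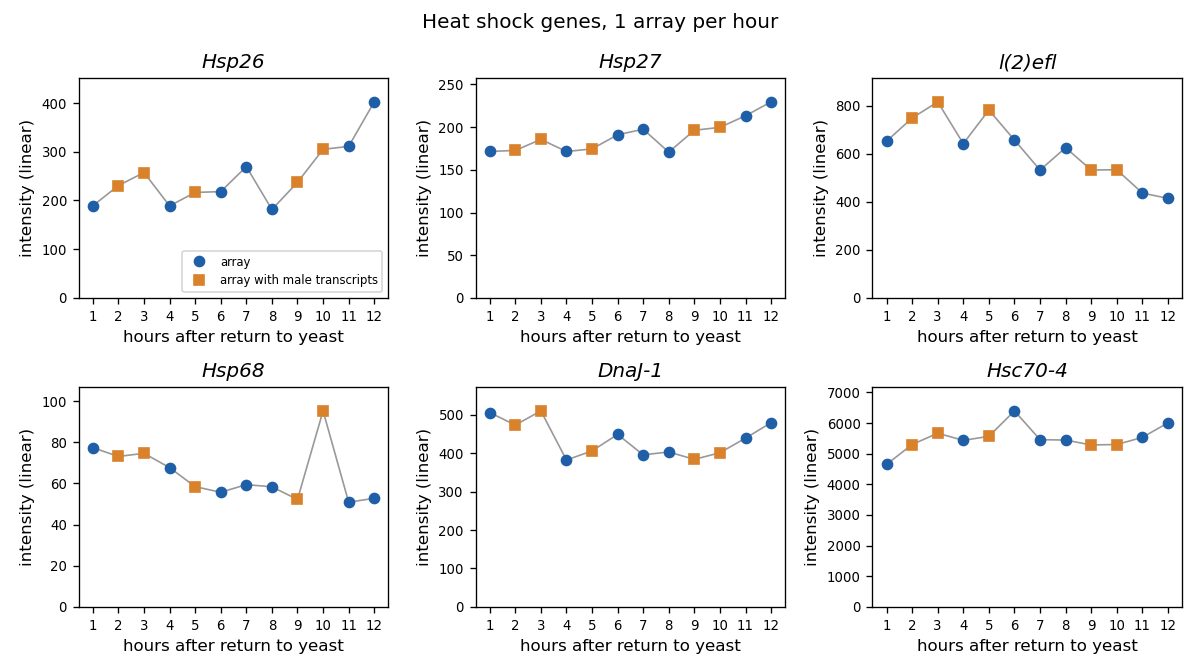
Intensity of the 6 heat shock genes (linear scale, y axis from 0) against hours after the return to yeast, with 1 point per array and squares for the 5 arrays holding male transcripts. Hsp26 and Hsp27 are highest in hours 10 to 12, l(2)efl is lowest in hours 11 and 12, and Hsp68 stands apart at hour 10, at 95.3.

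Hsp68 had no trend past the threshold but stood apart on 1 array. This inducible member of the Hsp70 family read 77.4, 73.2, 74.7, 67.7, 58.5, 55.7, 59.5, 58.4, 52.2, 95.3, 50.9 and 52.8. The values of hours 1 to 3 were above those of hours 4 to 9, and the value at hour 10 was above all others. Set against the line through the other 11 arrays, hour 10 was higher by 0.76 ± 0.11 on the log2 scale, or 1.69-fold (limma adjusted p = 0.0235, adjusted over all probe sets and all 12 hours). The probe set is dim: 4 of its values are under the floor, and on each array the brightest of 19 control probe sets without a fly target, at 98.1 to 135.2, read higher. Without hour 10 the trend of Hsp68 was -0.46 ± 0.10 (limma adjusted p = 0.00549), compared with -0.26 ± 0.19 with all arrays (limma adjusted p = 0.48). The smaller p comes from leaving out a value already seen to stand apart, and is to be read with that caution. The 4 values under the floor entered both fits as the floor itself, which narrows their spread.

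Few probe sets stood apart at hour 10. Of 11586 probe sets 0.0345% were higher and 0.0432% changed in either direction, which is 4 and 5 probe sets. Besides Hsp68 the higher ones were the probe set paired with 4 Hsp70B copies, the second probe set of Hsp22 and CG4456, and that of CG33080. CG5773 was lower. The shared heat shock probe sets lie outside the rule for members and were looked at after their values were seen. Of the 6 members 1 was called at any hour, against 0.932% of all probe sets.

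The Hsp70B copies are near-identical genes for the main heat-induced Hsp70, and their signal cannot be assigned to 1 copy. Their probe set read 219.7, 152, 145, 114, 112, 107, 111, 97.3, 102, 259, 100.5 and 104 from hour 1 to hour 12. It was thus high at hour 1, lower by hour 4, between 97.3 and 114 through hour 9, and high again at hour 10 alone. In hours 6, 8, 9, 11 and 12 it read under the brightest control probe set without a fly target, at 106.5 to 135.2 on those arrays. Its lower values are thus near those of such controls. The departure at hour 10 was 1.41 ± 0.21, or 2.66-fold (limma adjusted p = 0.0312). A further probe set, paired with the same 4 copies and CG5608, read 329.9, 246, 189.5, 142, 127, 134, 148, 135, 129, 369, 129.5 and 119. Its order over the hours was alike, with a departure of 1.62 ± 0.28 at hour 10 that did not pass (limma adjusted p = 0.0647). At hour 1 neither departure passed, at 0.75 ± 0.44 and 0.87 ± 0.52 (limma adjusted p = 0.991 and 0.999). With hour 1 left out the hour 10 departure of the further probe set did pass, at 1.57 (limma adjusted p = 0.0182).

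**Figure D2:**
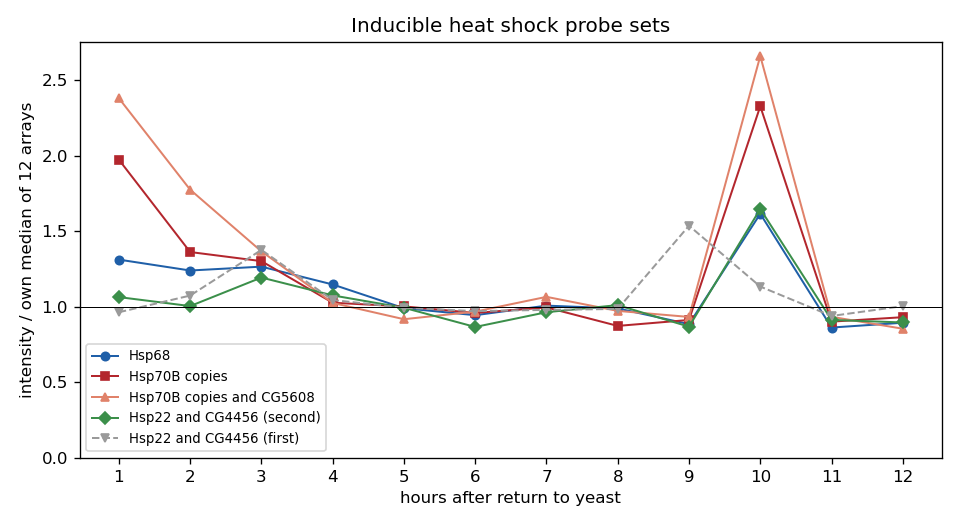
Intensity divided by the probe set's own median over the 12 arrays (y axis, from 0) against hours after the return to yeast. Shown are Hsp68 and, looked at after their values were seen, both Hsp70B probe sets and the first and second of Hsp22 and CG4456. The other members are not shown. Hsp68, both Hsp70B probe sets and the second probe set of Hsp22 and CG4456 peak at hour 10, while the first probe set of Hsp22 and CG4456 peaks at hour 9.

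The probe sets of Hsp22 and CG4456 did not show the same hours. The second read 237, 223, 265, 239, 221, 193, 214, 225, 193, 366, 203 and 199, and its departure at hour 10 was 0.85 ± 0.12 (limma adjusted p = 0.0182). The next highest value was that of hour 3. The first read 551, 614, 787, 597, 568, 555, 560.2, 564, 878, 648, 537 and 574. Its highest value was at hour 9 (departure 0.60 ± 0.15, limma adjusted p = 0.357), and its departure at hour 10 was 0.10 ± 0.23. The third was under the floor on all 12 arrays and was not tested. Since each is paired with both genes, none of these values can be given to Hsp22 alone.

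The array of hour 10 was 1 of the 5 arrays with male transcripts, and its summed accessory gland signal of 1148 lay within the range of those 5. On the other 4 of them Hsp68 read 52.2 to 74.7 and the Hsp70B probe set 102 to 152, under the values of hour 10. The 3' control probe set of GAPDH exceeded the 5' one, a measure of RNA quality, by a log2 difference of 2.32 at hour 10 and 1.33 to 1.80 on the other 11 arrays. The same measure lay within the other arrays for actin, at 0.74 against 0.69 to 1.13, and for eIF-4a, at 1.37 against 1.16 to 1.74. The part of the GAPDH value in the hour 10 departures was not tested. The call of Hsp68 at hour 10 was lost without hour 11 (limma adjusted p = 0.0519). That of the Hsp70B probe set was lost under 9 of 20 alternative settings. Among them were the fits without hour 2, 5, 6, 7, 8, 9 or 11 (limma adjusted p between 0.0508 and 0.0619), at departures from 1.38 to 1.45. With the accessory gland signal as covariate the 3 departures were 0.78 for Hsp68, 1.49 for the Hsp70B probe set and 0.85 for the second Hsp22 and CG4456 probe set, and none passed (limma adjusted p = 0.0646, 0.0646 and 0.0588). Hsp26, Hsp27, l(2)efl, DnaJ-1 and Hsc70-4 had departures at hour 10 between -0.11 and 0.11, none of which passed (limma adjusted p = 1 for each). Of the 21 probe sets of other chaperones tested, limma called 0 at hour 10, and 8 had an unadjusted p under 0.05, all 8 with a negative departure, from -0.23 for Cdc37 to -0.64 for CG1416. Of all probe sets 14.3% had such a p at hour 10, and 9.49% had it with a negative departure.

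**Figure D3:**
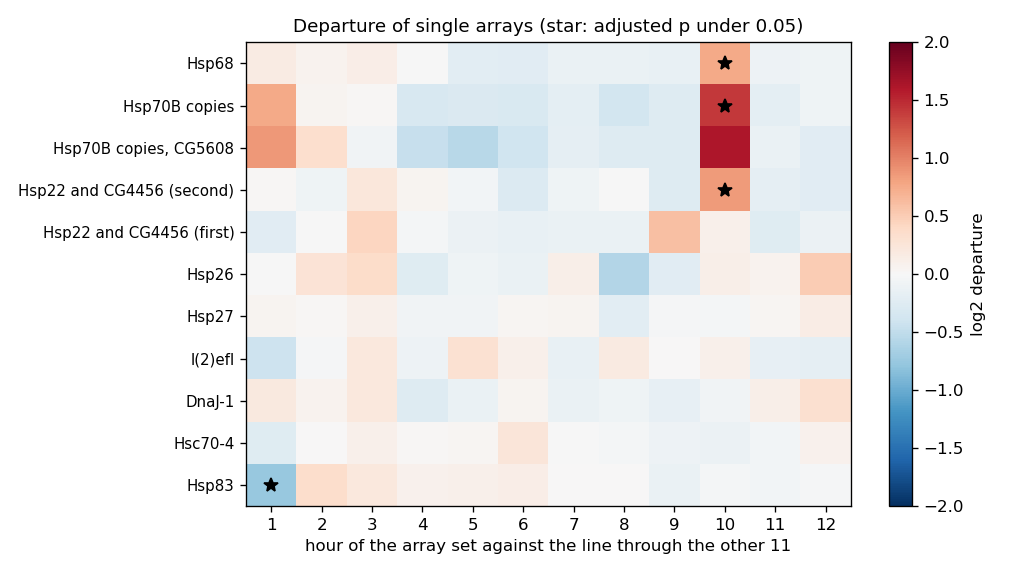
Log2 departure of each array (x axis, hour) from the line through the other 11 for the heat shock probe sets (rows), in colour, with a star where the limma adjusted p was under 0.05. The stars at hour 10 are Hsp68, the Hsp70B copies and the second Hsp22 and CG4456 probe set, and the star at hour 1 is the low value of Hsp83.

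DnaJ-1 and Hsc70-4 passed neither the trend nor a single-hour test. The J-domain gene DnaJ-1 had a lowest intensity of 383 at hour 4, a median of 423 and a highest of 510.3 at hour 3. Its values of hours 1 to 3, between 474 and 510.3, were above those of hours 4 to 9, between 383 and 449, and hours 11 and 12 read 439 and 479.6. The fitted change was -0.17 ± 0.13 (limma adjusted p = 0.481). The constitutive Hsc70-4 had its lowest intensity of 4651 at hour 1, a median of 5452 and its highest of 6397 at hour 6, with a fitted change of 0.13 ± 0.10 (limma adjusted p = 0.481). Both genes stayed within 1.38-fold from their lowest to their highest array.

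Hsp83, the fly Hsp90, was low on the first array. Hour 1 read 2862, and the later arrays ranged from 4159 (hour 9) up to 5079 (hour 2). Hour 1 was lower than the line through the others by a departure of -0.76 ± 0.09 (limma adjusted p = 0.00689), a level of 0.59 of that fitted. Only 0.0345% of all probe sets were lower at hour 1 by this test. Leaving out any other single hour kept the call, and without the 5 arrays with male transcripts the departure was -0.68 (limma adjusted p = 0.182). At hour 1 the departure of Hsc70-4 was -0.25 ± 0.11 (limma adjusted p = 0.891). That of Droj2, a further J-domain gene, was -0.50 ± 0.10 (limma adjusted p = 0.135), with 1421 at hour 1 and at least 1739 at each later hour. Of 157 probe sets with a mean intensity over 2000, 106 lay under their line at hour 1, with a median departure of -0.03. The departure of Hsp83 was the lowest of them. Of the same 157 probe sets 40, or 25.5%, had their lowest intensity at hour 1.

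**Figure D4:**
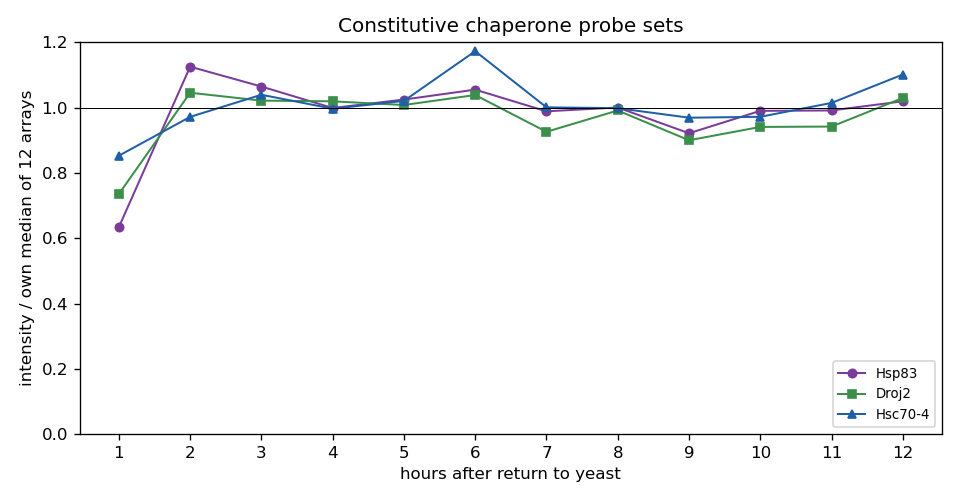
Intensity of Hsp83, Droj2 and Hsc70-4, each divided by its own median over the 12 arrays (y axis, from 0), against hours after the return to yeast. All of them are lowest at hour 1, Hsp83 at 2862 against 4159 or more at each later hour. Droj2 was chosen after its values were seen.

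Further probe sets are paired with Hsc70-4 together with another gene, lie outside the rule for members and were looked at after their values were seen. The 2 that the annotation pairs with both Hsc70-4 and the acyl-CoA binding protein gene Acbp3 read 151 and 188 at hour 1, 254 and 290.2 at hour 4, and 456 and 459 at hour 12. They rose by 1.70 ± 0.18 and 1.43 ± 0.17 (limma adjusted p = 0.000132 and 0.000192), and the calls were kept without any single hour. The probe set of Hsc70-4 alone, at 0.13, did not pass. The signal of the shared ones cannot be assigned to either gene.

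The other cytosolic chaperone genes were spread to both sides. Of 23 probe sets for 22 further genes of heat shock and Hsp70 or Hsp90 function, 21 were tested, and 4 rose, 4 fell and 13 did not pass. Their median fitted change was 0.05. Of all 11586 probe sets tested 8.44% rose and 4.97% fell. The probe set of Hsf, the heat shock factor itself, had a fitted change of 0.05 ± 0.20 (limma adjusted p = 0.928), and its intensities ranged from 71.1 (hour 4) up to 113 (hour 8). The number that passed was 4 without hour 2 or hour 11, 5 without hour 4 or hour 12 and 11 without hour 10.

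Among the genes that rose, CG1416, the fly relative of the Hsp90 activator Aha1, rose by 0.93 ± 0.19 (limma adjusted p = 0.00549) and read 175 on the first array and 359 on the last. The Hsp90 co-chaperone p23 rose by 0.69 ± 0.17 (limma adjusted p = 0.0178), but not without hour 2 (0.0596) or hour 11 (0.0655). Sgt, which encodes a co-chaperone with tetratricopeptide repeats, rose by 0.55 ± 0.15 (limma adjusted p = 0.0303). Hsp110, a nucleotide exchange factor of Hsp70, rose by 0.68 ± 0.21 (limma adjusted p = 0.0431). The call of Sgt was lost without hour 2, 3, 4, 11 or 12 (limma adjusted p between 0.0516 and 0.0952). That of Hsp110 was lost without hour 1, 2, 4, 5, 6, 8, 9, 11 or 12 (between 0.0504 and 0.137). With no filter neither Sgt (limma adjusted p = 0.0679) nor Hsp110 (0.102) passed, Sgt did not without the arrays with male transcripts (0.0657), and with the actin covariate p23 (0.205), Sgt (0.423) and Hsp110 (0.272) did not. The kinase co-chaperone gene Cdc37 had a change of 0.28 ± 0.09 that did not pass (limma adjusted p = 0.0606).

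The genes that fell include 2 further small heat shock genes. CG7409 fell by 0.98 ± 0.16 (limma adjusted p = 0.00169), from 715 at hour 1 to 355 at hour 12. CG4461, which lies between Hsp22 and Hsp26 in the locus 67B, fell by 0.74 ± 0.12 (limma adjusted p = 0.0019), from 481 to 275, while its neighbour Hsp26 rose. A probe set of stv, the BAG-domain co-chaperone that helps Hsp70 release its clients, fell by 0.79 ± 0.14 (limma adjusted p = 0.00258), and the other probe set of stv, at 0.06 ± 0.09, did not pass (0.767). The J-domain gene jdp fell by 0.39 ± 0.12 (limma adjusted p = 0.0409), a call lost without hour 1, 2, 3, 4, 5, 9, 11 or 12 (between 0.0553 and 0.124). The jdp call was also lost with no filter (limma adjusted p = 0.0734), with log2 of hour (0.06) and without the arrays with male transcripts (0.14). The calls of CG1416, CG7409, CG4461 and stv were kept without any single hour. With the actin covariate these 4 did not pass, at 1.07 for CG1416 (limma adjusted p = 0.131), -1.12 for CG7409 (0.0594), -0.49 for CG4461 (0.268) and -0.84 for stv (0.112). The probe set of jdp did, at -0.76 (limma adjusted p = 0.0343). The small heat shock genes measured on probe sets of their own split, Hsp26 and Hsp27 upward and l(2)efl, CG7409 and CG4461 downward, while CG13133, at -0.15 ± 0.06, did not pass (limma adjusted p = 0.149).

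**Figure D5:**
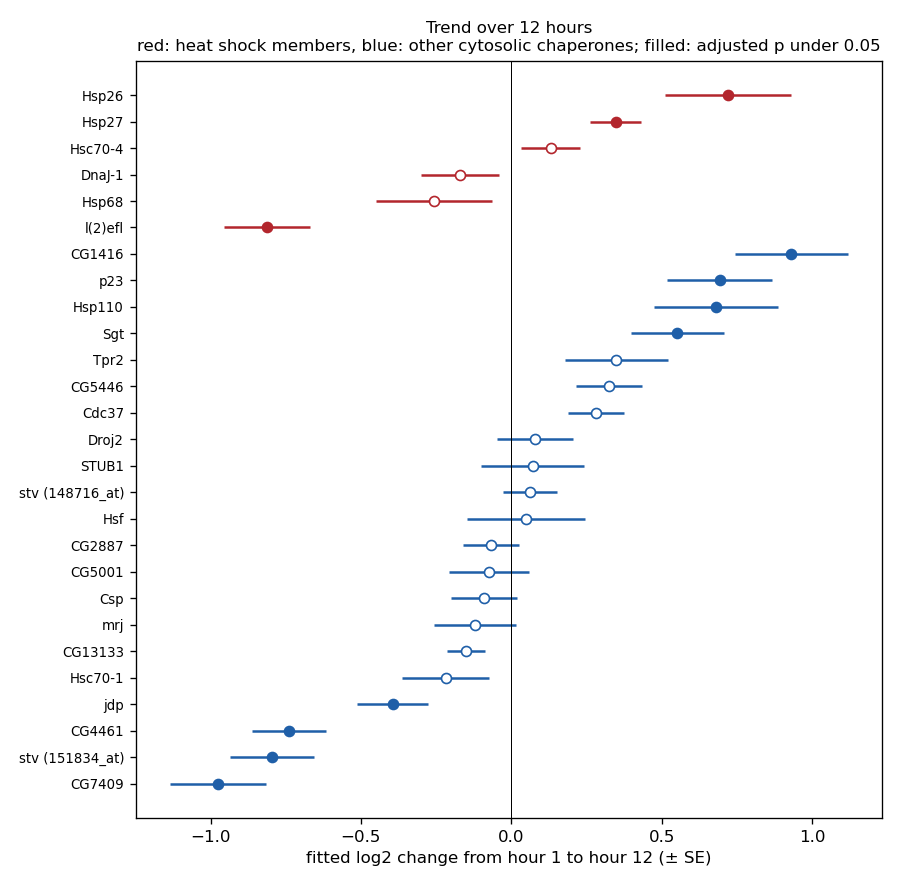
Fitted log2 change from hour 1 to hour 12 (x axis) with its SE for the 6 heat shock genes (red) and the 21 tested probe sets of other cytosolic chaperones (blue), filled where the limma adjusted p was under 0.05. l(2)efl, CG7409, stv and CG4461 lie furthest to the left, and CG1416, Hsp26 and p23 furthest to the right.

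Coarser and curved fits added little. Between hours 9 to 12 and hours 1 to 4, l(2)efl was lower by a log2 difference of -0.58 ± 0.12 (limma adjusted p = 0.0144) and Hsp27 higher by 0.26 ± 0.07 (0.0346), where 8.43% of all probe sets differed, 5.42% higher and 3.01% lower. In any window contrast 2 of the 6 genes passed, against 8.69% of all probe sets. Hsp26 was higher by 0.52 ± 0.16 without passing (limma adjusted p = 0.0589). The call of Hsp27 in this contrast was lost without hour 1, 2, 4, 11 or 12 (limma adjusted p between 0.0696 and 0.105), and that of l(2)efl without hour 11 (0.0513). None of the 6 genes passed between neighbouring windows of 4 hours. Between the middle and the early window limma called 0 of the 6, against 1.89% of all probe sets, and 1 of the 6, Hsp68, had an unadjusted p under 0.05, against 16.7%. Between the late and the middle window it called 0 of the 6 and 0 of all probe sets, and l(2)efl, Hsp26 and Hsp27 had an unadjusted p under 0.05, against 6.65%. For a curved course over hours limma called 0 of the 6, against 0.0345% of all probe sets. At an unadjusted p under 0.05 there were 3 of the 6 (DnaJ-1, l(2)efl and Hsp26), against 5.53% of all probe sets.

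Of the 6 genes Hsp26 varied most over the arrays on the log2 scale, with an SD of 0.34. The genes whose values over the 12 arrays were most like its own, among 9251 candidate probe sets that exceeded the floor on all arrays and are paired with 1 symbol other than those of the 6 genes, were CG14036 (Pearson r = 0.94), cort (0.92), CycB3 (0.89), CG7091 (0.89) and CG13933 (0.88). These are descriptions of 12 arrays that share hour and array effects. In hours 1, 8 and 12 CG14036 had intensities of 138, 129 and 209.5, and cort 57.3, 60.4 and 88.4.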

How the data were processed

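Total RNA from whole flies was extracted with Trizol, hybridized by the Affymetrix protocol and normalized with dChip using invariant difference selection, per the labels. Neither the dChip version nor its background model is given in the sources used here. The authors deposited linear intensities for 14010 probe sets, 13966 of them for fly transcripts, and these were used without further normalization. Precision is limited by the number of arrays. Intensities were floored at the 20th percentile of the table, and probe sets above it on at least 3 arrays were fitted with limma 3.58.1 in R 4.3.3, with Benjamini-Hochberg adjustment over all 11586.

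The fits were a slope on hour, a quadratic term, 3 windows of 4 hours, and, for each hour, an indicator added to the slope, adjusted over all probe sets and hours. The slope, the quadratic term and a single-hour indicator were also run on simulated data with independent noise for each probe set. Those data held no shared array effects, so that run cannot speak to such effects here. Genes were named from the platform annotation. Gene names, gene order and the synonym that links a probe set to Hsp83 came from RefSeq's table of Release 6 plus ISO1 MT. Other chaperones were sought under 42 names and found for 22 genes. All members are named. Of the other chaperones those past the trend threshold are named, and Hsf, Cdc37, Droj2 and CG13133 were chosen after their values were seen. Of the genes most like the most variable member 5 are named. The members and lists were chosen with earlier results of these data known. Alternatives were other floors, filters, normalizations, a trended robust variance, log2 of hour, accessory gland or actin covariates, the arrays with male transcripts left out, and each hour left out.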

Additional observations from a re-analysis of the deposited data

How the results depend on the processing

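Counts of heat shock genes that passed depended on the setting. For the trend, 1 passed with log2 of hour and 1 with the actin measure of RNA quality as covariate (3 in the report), and leaving out 1 hour gave 1 to 3. For the window contrasts 1 passed with quantile normalization, 1 with median scaling, 4 without the arrays with male transcripts and 0 with the actin covariate (2 in the report), and leaving out 1 hour gave 0 to 3. For single-hour departures 0 passed with the floor at the 40th percentile or the strict filter, under which Hsp68 was not tested, 0 without the arrays with male transcripts, which leave out hour 10, and 0 with the accessory gland covariate (1 in the report). Leaving out 1 hour gave 0 to 1. In the report 8.69% of all probe sets passed in any window contrast and 0.932% at any single hour. Their shares under the other settings were not counted, so the changes in these 2 counts have no such share beside them. The curvature count was 0 throughout. Of the other chaperone probe sets 1 passed with the actin covariate (8 in the report), and leaving out 1 hour gave 4 to 11. With the actin covariate the fitted change was 1.11 for Hsp26, 0.49 for Hsp27 and -1.07 for l(2)efl, and Hsc70-4 turned to -0.0046 from 0.13, not called in either. Over all probe sets the trend called 1554 in the report, 1571 with log2 of hour and 228 with the actin covariate. It called 996, 1031, 945 and 997 without hour 1, 2, 11 and 12, and 1993 without hour 10. With no filter or quantile normalization Hsp26 did not pass (limma adjusted p = 0.0874 and 0.0529). With log2 of hour neither Hsp26 (0.118) nor Hsp27 (0.0566) did. The cause was not tested. No paired analysis was possible because there is 1 group with 1 array per hour.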
